A study of Drosophila melanogaster with 80 samples.

Results

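Whole adult females of Drosophila melanogaster under a fluctuating temperature, collected at the low point after 12 cycles, were compared with females kept at a constant temperature and collected at the same point. The 8 libraries, 4 of fluctuating and 4 of constant females, were chosen by their column names in the deposited count table, out of 80 libraries of larvae, females and males. The fluctuating regime had a mean of 19 °C and an amplitude of 8 °C, so its low point lay at 11 °C and its high point at 27 °C. Constant females stayed at 19 °C. Both groups were treated for 13 days as adults, lived on standard food and were moved to fresh vials every 2 days. The labels give no strain, genotype or age for any group. The values set beside the main comparison come from other fluctuating and constant groups, again with 4 libraries per group. They are females at the low point after 6 cycles, females at the high point after 6 and 12 cycles, and males at the low point after 12 cycles. The labels give 13 days of treatment for all of these, after 6 cycles as after 12. Nothing in the labels ties a replicate to a separate culture beyond the words biological replicates, so the p-values measure the spread between these samples.

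In flies, the clock genes per and tim encode repressors of their own transcription, and vri and cwo encode further repressors that act on clock genes. Temperature cycles can set this clock as light cycles do. Heat shock proteins are chaperones that hold or refold proteins, most of them induced by heat and some also during recovery from cold. The comparison addresses what an adult female at the cool end of a thermal cycle expresses after many cycles, relative to a female that never met the cycle.

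Library totals were 105.1 to 130.7 M counts (M, mega) in fluctuating females and 101.3 to 122.4 M in constant females, and 13741 to 14194 genes had a count. These counts are estimates, and low values pile up at multiples of 4, so the number of fragments behind a value is not known and may be smaller than the count. Levels are in CPM, the count normalised to its library total, after scaling for library composition. A gene is called when the quasi-likelihood test of edgeR gives a Benjamini-Hochberg adjusted p of at most 0.05 over the 13471 genes tested. The first principal component of the 8 libraries held 23.5% of the variance and separated the regimes. Constant replicate 7 stood apart in the genes of yolk and eggshell proteins, whose summed level was 9399 CPM there and 23800 to 25490 CPM in the other constant libraries. Fluctuating libraries had sums of 19660, 35290, 28580 and 40130 CPM. The summed level of 48 testis genes was 242.1 to 299.9 CPM in fluctuating and 284 to 325.6 CPM in constant females.

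Of the 13471 genes, 1802 (13.4%) were called, 1005 of them higher (7.46%) and 797 lower (5.92%) in fluctuating females. An unadjusted p below 0.05 was found for 3900 of the 13471. Most changes were small. Among called genes, 151 were at least 2-fold higher and 40 at least 2-fold lower, the median log2 fold change was 0.51 for the higher and -0.22 for the lower ones, and over all genes tested it was 0.0036. Genes called higher had a median level of 18.9 CPM and genes called lower of 77.1 CPM, against 18.2 CPM over all genes tested. The 4 and 4 values did not overlap in 731 of the genes called higher and 581 of those called lower, while 15.8% of all genes tested had groups that did not overlap, 8.49% with the fluctuating and 7.35% with the constant libraries on top. The count rested unevenly on the libraries. It was 2495, 798, 1537 and 1278 without fluctuating replicate 5, 6, 7 or 8, and 1895, 1208, 1493 and 1033 without constant replicate 5, 6, 7 or 8. It was 595 when the 8 libraries were fitted alone without the other female libraries. List counts from such fits, given below, stand beside these totals and not beside the 1802, so they can move without any change particular to a list. In each of the 8 fits that left out a library, 673 genes stayed called, 467 higher and 206 lower.

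**Figure D1:**
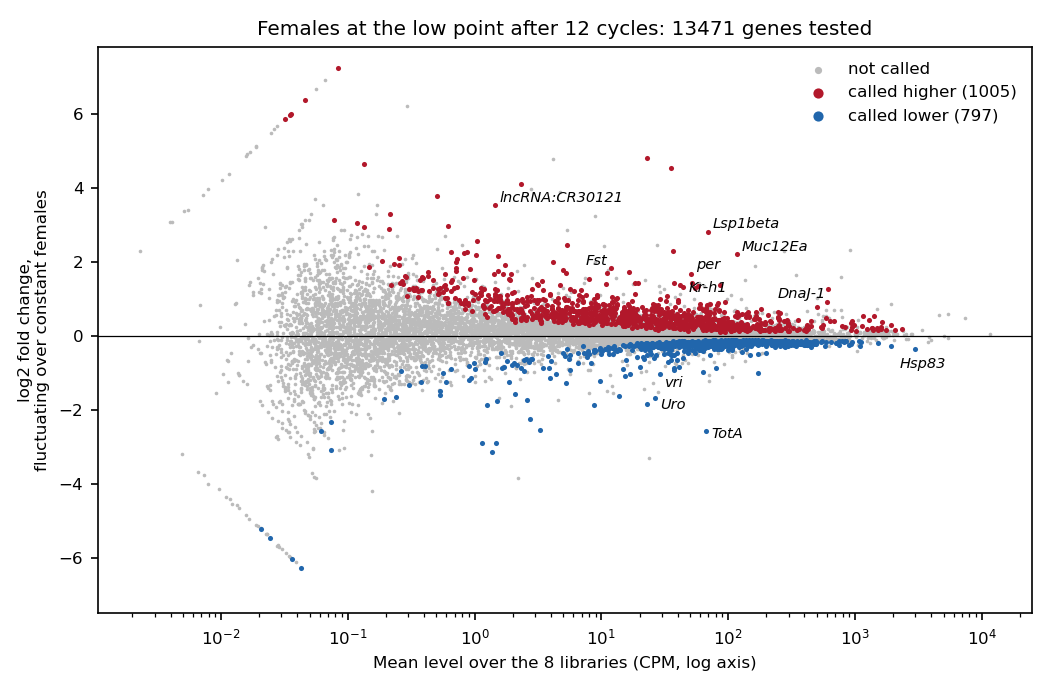
Each point is a gene, placed by its mean level over the 8 libraries (CPM, log axis) and its log2 fold change of fluctuating over constant females; red and blue points are called genes. The 1005 genes called higher reach larger fold changes than the 797 called lower, which lie at higher levels, and the points on the 2 diagonal lines at the far left are genes with no count in 1 of the groups.

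The clock repressor per was the gene of lowest p. Its transcript (FBgn0003068, chromosome X, 2685580 to 2692780, plus strand, BDGP6.54 annotation) stood at 68.1, 91.8, 71.7 and 79.3 CPM in fluctuating females, against 24.2, 24.8, 27 and 22.0 CPM in constant females. Every fluctuating library was above every constant library by more than 2-fold. The log2 fold change was 1.67 (SE 0.127, adjusted p = 2.91e-09). The other strong clock change went down. The transcript of vri (FBgn0016076, chromosome 2L, 5288944 to 5311223, plus strand), a repressor of Clk, stood at 16.9, 21.7, 17.5 and 19.5 CPM in fluctuating females, against 43.5, 40.3, 33.8 and 38.2 CPM in constant females, a log2 fold change of -1.04 (SE 0.105, adjusted p = 3.2e-07). The groups did not overlap.

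Smaller changes were called in 3 further clock genes. The repressor gene cwo averaged 94.9 ± 8.62 CPM in fluctuating and 73.5 ± 2.38 CPM in constant females (SD, n = 4 each; log2 fold change 0.37, adjusted p = 0.00152), and Pdfr, the receptor of the clock neuropeptide PDF, 19.1 ± 1.7 and 12.9 ± 1.74 CPM (0.57, adjusted p = 0.00136). Bdbt, whose protein binds the clock kinase Dbt, was lower (-0.24, adjusted p = 0.0129), with groups that overlapped, and lost its call without fluctuating replicate 6 or constant replicate 6. In all, 3 of the 19 clock genes tested were higher and 2 lower, 26.3% of the list beside 13.4% of all genes tested. The partner repressor tim, at 146 ± 14.7 CPM in fluctuating and 139 ± 12.9 CPM in constant females, was not called, nor were Clk and the photoreceptor gene cry, with log2 fold changes of 0.08, 0.01 and -0.30. The genes per and vri each overlap a gene on the opposite strand, dyw and lncRNA:CR45730, and the labels do not say whether counting used the strand. The level of dyw was 0.378 CPM in fluctuating and 0.229 CPM in constant females.

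At the low point, higher per in fluctuating females was called after 12 cycles and not after 6 cycles. At the low point after 6 cycles per averaged 58.4 ± 2.53 CPM in fluctuating and 51.3 ± 12.3 CPM in constant females (SD, n = 4 each), a log2 fold change of 0.19 that was not called, and the effect after 12 cycles exceeded it by 1.48 on the log2 scale (SE 0.175, adjusted p of the difference = 3.53e-05). Between 6 and 12 cycles mean per was lower in constant and higher in fluctuating females, and the change was larger in constant females. At the high point after 12 cycles per was lower in fluctuating females, at a log2 fold change of -0.85, and the difference between the points was 2.52 (SE 0.178, adjusted p = 5.92e-10). In males at the low point after 12 cycles per was higher by 1.54, and no difference between the sexes was called (0.12, adjusted p = 0.858). For vri the effect after 6 cycles was larger than after 12, at -1.88, and the difference of 0.84 was called (adjusted p = 0.000408).

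**Figure D2:**
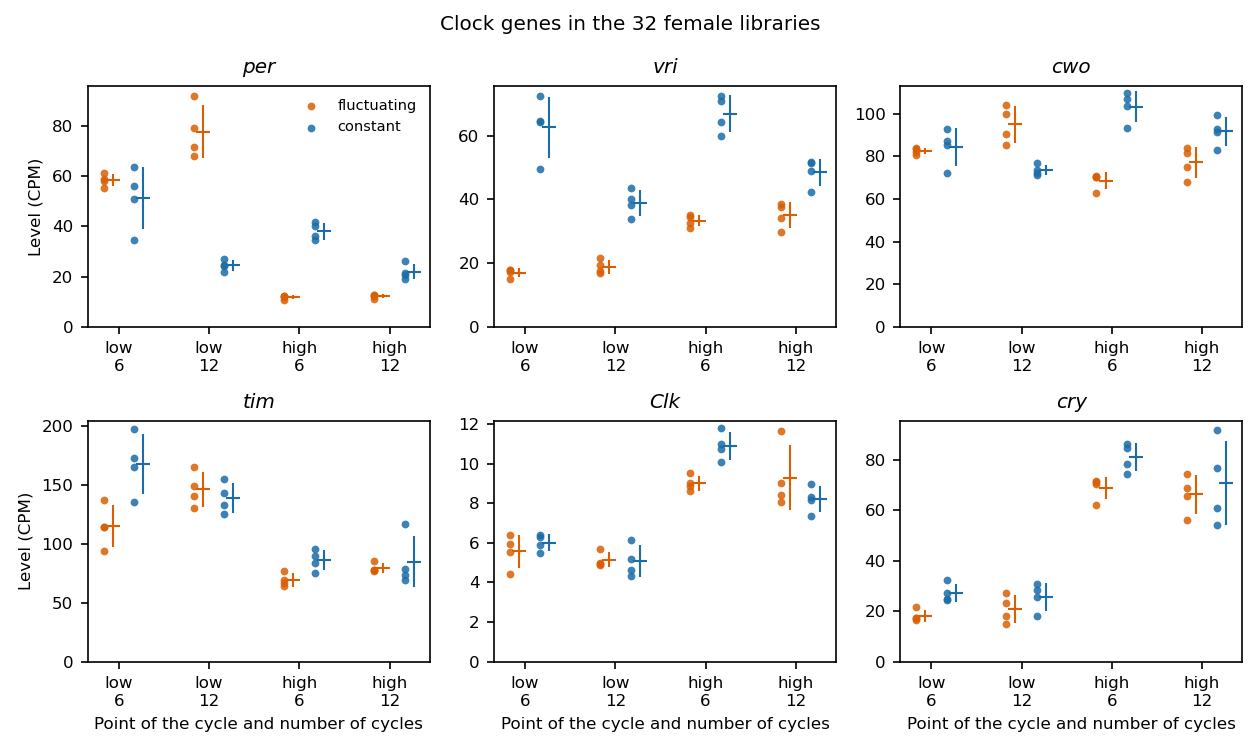
Levels (CPM) of 6 clock genes in the 32 female libraries, by point of the cycle and number of cycles; points are libraries, with the mean and SD beside them, fluctuating in orange and constant in blue. At the low point after 12 cycles per lies between 68.1 and 91.8 CPM in fluctuating females, above the 22.0 to 27 CPM of constant females, vri lies below, and tim, Clk and cry overlap.

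Heat shock and co-chaperone genes moved in both directions, with 4 of 31 tested higher and 5 lower. That is 29% of the list, beside 13.4% of all genes tested. Without fluctuating replicate 6, 4 were higher and 2 lower. DnaJ-1 (FBgn0263106, chromosome 3L, 5750029 to 5752189, minus strand), an Hsp40 co-chaperone of Hsp70, stood at 291, 267, 303.6 and 286 CPM in fluctuating females, against 207, 211, 200 and 207 CPM in constant females (log2 fold change 0.48, SE 0.0432, adjusted p = 6.27e-08). The inducible Hsp68 averaged 6.95 ± 0.631 CPM in fluctuating and 4.15 ± 0.992 CPM in constant females, the small heat shock gene Hsp23 5.72 ± 1.58 and 2.96 ± 0.376 CPM, and stv, a BAG-family co-chaperone, 46.4 ± 7.09 and 32.5 ± 2.58 CPM (SD, n = 4 each). All 3 were called, with groups that did not overlap. The abundant cytosolic chaperone gene Hsp83 (FBgn0001233, chromosome 3L, 3192969 to 3197059, plus strand) was lower, at 2889.7, 2455, 2576 and 2556 CPM in fluctuating females, against 3493, 3482, 3113 and 3447 CPM in constant females (-0.37, SE 0.0512, adjusted p = 3.05e-05). Its co-chaperone p23 (-0.19) and the heat shock factor gene Hsf (-0.16) were called lower as well, as were Droj2 and mrj, although Hsf lost its call in 7 of 15 alternative settings, and Droj2 and mrj theirs without fluctuating replicate 6 (mrj also without constant replicate 6). None of the 6 Hsp70 copies tested was called by edgeR with all libraries, and 5 had an unadjusted p below 0.05, as did 3900 of all 13471 genes tested. Hsp70Bc was called by DESeq2 and, by edgeR, without constant replicate 6, and Hsp70Aa and Hsp70Ab without fluctuating replicate 8; their log2 fold changes ran from 0.28 (Hsp70Ba) to 0.69 (Hsp70Bc), and counts of these near-identical copies may be split between them.

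The chaperone changes differed with the point of the cycle and the sex. Hsp68 was higher by 1.91 on the log2 scale at the high point after 12 cycles, and the difference from the low point, -1.16, was called (adjusted p = 0.00703). The difference for DnaJ-1 was -0.24 (adjusted p = 0.011) and for Hsp83 -0.37, with no called effect on Hsp83 at the high point. In males at the low point after 12 cycles neither DnaJ-1 (0.03) nor Hsp68 (-0.03) was called, and the female effects exceeded the male ones by 0.44 (adjusted p = 0.0109) and 0.77 (adjusted p = 0.0378).

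Most of the called chaperone genes of the endoplasmic reticulum were lower. Of 22 tested, 10 were called lower and 1 higher, 50% of the list against 13.4% of all genes. The list's median log2 fold change was -0.156, beside 0.0036 over all genes tested. Hsc70-3, the BiP chaperone of the endoplasmic reticulum, averaged 1002 ± 29 CPM in fluctuating and 1204 ± 44.2 CPM in constant females (-0.27, adjusted p = 0.0237), and the calcium-binding chaperone gene Calr 528 ± 11.8 and 635 ± 26.9 CPM (-0.27, adjusted p = 0.000259). Herp, Grp170, Gp93, Cnx99A, CaBP1, sip3, Sec63 and Hrd3 were the other 8, at -0.27 to -0.16. The stress sensor gene Ire1 was higher (0.29, adjusted p = 0.00105). Across all 16 fits of the comparison, 6 to 10 of the list were called lower, 6 without fluctuating replicate 6. Hsc70-3 lost its call without fluctuating replicate 6, constant replicate 6 or constant replicate 8.

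Fst (FBgn0037724, chromosome 3R, 9644978 to 9646154, minus strand), a gene known for its induction after cold, stood at 11.9, 31.1, 34.2 and 24.3 CPM in fluctuating females, against 9.27, 6.61, 10.3 and 4.71 CPM in constant females. Fluctuating replicate 5 lay just above the highest constant library, and the other 3 well above it. The log2 fold change was 1.72 (SE 0.296, adjusted p = 0.000374). After 6 cycles the effect was -0.03 and at the high point after 12 cycles -1.37, and both differences from the effect described here were called (1.75, adjusted p = 0.00394, and 3.08, adjusted p = 1.83e-05). The noncoding heat shock RNA lncRNA:Hsromega was also higher, at 98.3 ± 13 CPM in fluctuating and 60.0 ± 5.81 CPM in constant females (SD, n = 4 each; 0.71, adjusted p = 0.00034).

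Turandot genes, which encode small secreted stress proteins, were lower where called, 3 of a list of 10 cold and Turandot genes that also holds Fst and lncRNA:Hsromega. Of that list 50% was called, beside 13.4% of all genes tested. TotA was at 29.9, 21.3, 13.6 and 13.0 CPM in fluctuating females, against 119, 27.8, 267 and 47.0 CPM in constant females (-2.57, SE 0.602, adjusted p = 0.00567). The constant libraries spread widely, and their lowest lay below the highest fluctuating library. TotM (-1.84) was called with groups that overlapped as well, a call lost under 9 of 15 other settings, among them leaving out constant replicate 5 or 7 or fluctuating replicate 6, 7 or 8, and TotC (-1.63, adjusted p = 0.0227) with groups that did not; TotC lost its call without constant replicate 5, constant replicate 8 or fluctuating replicate 8. Among 50 antimicrobial and immune genes 2 were called higher and 1 lower, 6% of the list beside 13.4% over all genes. None of 7 lysozyme genes was called by edgeR, while 4 of them had an unadjusted p below 0.05, as did 3900 of all 13471 genes tested. DESeq2 called 1 lysozyme gene higher, and without fluctuating replicate 5 edgeR called 2 higher and 1 lower.

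**Figure D3:**
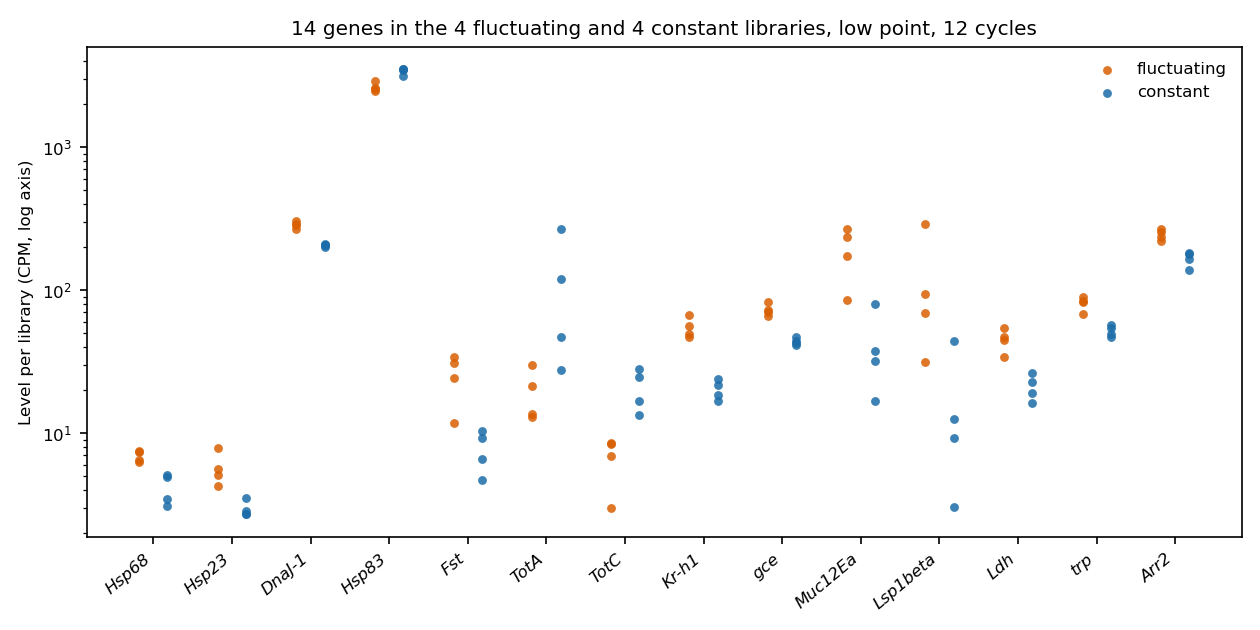
Level of 14 genes in each library (CPM, log axis), fluctuating females in orange to the left and constant females in blue. The 2 groups are apart for Hsp68, Hsp23, DnaJ-1, Hsp83, Fst, TotC, Kr-h1, gce, Muc12Ea, Ldh, trp and Arr2, and overlap for TotA and Lsp1beta.

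Genes of juvenile hormone and ecdysone signalling gave 9 of 32 higher and 2 lower, 34.4% of the list beside 13.4% of all genes tested, and 5 higher and 2 lower without fluctuating replicate 6. Kr-h1 (FBgn0266450, chromosome 2L, 6082603 to 6096498, plus strand), a zinc finger transcription factor that responds to juvenile hormone, stood at 56.1, 66.5, 47.0 and 49.1 CPM in fluctuating females, against 16.8, 24.1, 21.8 and 18.4 CPM in constant females (1.43, SE 0.226, adjusted p = 0.000145). Every fluctuating library was well above the constant ones. The juvenile hormone receptor gene gce averaged 73.1 ± 6.78 CPM in fluctuating and 43.8 ± 2.57 CPM in constant females (0.74, adjusted p = 1.68e-05). The cytochrome P450 gene shd, whose product converts ecdysone to its active form, was at 2.85 ± 0.0799 and 1.26 ± 0.325 CPM (1.18, adjusted p = 0.000587). Eip93F, Eip74EF, Hr4, tai, Jheh1 and Jheh2 were also higher, at 0.25 to 0.83; without fluctuating replicate 6, all of these but Eip93F and tai lost the call, and Jheh1 lost it without any 1 of 7 libraries. The juvenile hormone epoxide hydrolase gene Jheh3 was lower (-0.30, adjusted p = 0.00101). The effect on Kr-h1 was of similar size after 6 cycles (1.26) and in males (1.53), with no difference called, and smaller at the high point after 12 cycles, where the difference was called (1.20, adjusted p = 0.0134). For gce the effect at the high point was -0.58, and that difference of 1.32 was called too.

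Nutrient signalling and fuel genes were called in both directions. Of 32 insulin and nutrient signalling genes, 8 were higher and 2 lower, 31.2% of the list beside 13.4% of all genes tested. Without fluctuating replicate 6, 4 were higher and none lower. The fat body insulin-like peptide gene Ilp6 averaged 20.9 ± 4.85 CPM in fluctuating and 13.6 ± 0.425 CPM in constant females (0.63, adjusted p = 0.00121), the adipokinetic hormone receptor gene AkhR 23.6 ± 4.34 and 14.3 ± 1.15 CPM (0.72, adjusted p = 0.0054), and the kinase gene Akt 177 ± 8.08 and 199 ± 3.49 CPM (-0.17, adjusted p = 0.0054), SD with n = 4 each, the last lost without fluctuating replicate 6. Lactate dehydrogenase, Ldh, was at 34.0, 54.2, 44.6 and 46.7 CPM in fluctuating females, against 19.2, 22.7, 26.3 and 16.4 CPM in constant females (1.09, SE 0.216, adjusted p = 0.00147). The trehalose transporter gene Tret1-1 (0.64) and the trehalose synthase gene Tps1 (0.40) were higher, among 4 higher and 1 lower of 29 genes of sugar metabolism. That is 17.2% of the list, beside 13.4% of all genes tested. The count was 2 and 0 without fluctuating replicate 6 or constant replicate 8. Tps1 lost its call without constant replicate 6 or 8 or fluctuating replicate 6. It went the other way after 6 cycles (-0.55) and at the high point after 12 cycles (-0.47), and both differences were called (0.95 and 0.87).

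Of 40 lipid metabolism genes 9 were higher and 1, the fatty acid transport gene Fatp3 (-0.34), lower. That is 25% of the list, beside 13.4% of all genes tested. Without either fluctuating replicate 6 or constant replicate 8, 4 were higher and none lower, in fits that called 798 and 1033 genes in all. The lipophorin receptor gene LpR1 averaged 108 ± 14.8 CPM in fluctuating and 77.2 ± 5.5 CPM in constant females (0.49, adjusted p = 0.00013). The elongase gene eloF, which acts in female pheromone synthesis, was at 57.9, 49.8, 49.4 and 55.9 CPM in fluctuating females, against 32.5, 32.1, 14.3 and 30.8 CPM in constant females (0.96, adjusted p = 0.00076). Constant replicate 7 was the low library. The fatty acid synthase gene FASN1 (0.41, adjusted p = 0.043) was called with groups that overlapped. FASN1 lost that call without constant replicate 5 or 8 or fluctuating replicate 6, 7 or 8, and Fatp3 lost its call without constant replicate 5 or 8 or fluctuating replicate 6.

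Photoreceptor genes were all on the higher side among those called, 11 of 30 and none lower by edgeR or DESeq2. That is 36.7% of the list, while edgeR called 13.4% of all genes tested, 7.46% higher and 5.92% lower. At an unadjusted p below 0.05 the counts were 14 and 0, where 3900 of all 13471 genes tested passed in either direction. Without fluctuating replicate 6 the list's count was 7, in a fit that called 798 genes in all. The photoreceptor channel gene trp stood at 83.4, 90.0, 82.0 and 68.1 CPM in fluctuating females, against 54.7, 47.4, 56.8 and 49.7 CPM in constant females (0.63, SE 0.0978, adjusted p = 0.000112). The arrestin gene Arr2 (0.56), inaF-B (0.74) and the major rhodopsin gene ninaE (0.39) had groups that did not overlap either. The summed level of the list was 2203 to 2454 CPM in fluctuating and 1665 to 2105 CPM in constant females. Muscle genes gave 7 higher and 1 lower of 29, 27.6% of the list. Among them were Mhc, the myosin heavy chain gene, at 512 ± 72.3 CPM in fluctuating and 386 ± 28.9 CPM in constant females (0.41, adjusted p = 0.0292), and the titin-like gene sls at 0.39. The muscle list gave 1 higher and none lower without fluctuating replicate 6 (798 genes called in all), or 1 and 1 without constant replicate 8 (1033 in all). Mhc lost its call without either of these or constant replicate 7, and sls without either of these or constant replicate 6. Neuron markers gave 3 higher and 2 lower of 21, 23.8% of the list, with comt, described further on, the member of lowest p. The counts were 1 and 1 without fluctuating replicate 6 or constant replicate 6, and 1 and 2 without constant replicate 8. In whole animals, fewer cells of a type and less RNA per cell cannot be told apart.

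Genes of dividing cells were lower by small amounts. Of 27 mitosis and cell cycle genes, 10 were called lower and none higher by edgeR or DESeq2. That is 37% of the list, while edgeR called 13.4% of all genes tested. At an unadjusted p below 0.05 there were 16 and 0, where 3900 of all 13471 genes tested passed. The median log2 fold change of the list was -0.162. The cyclin gene CycA averaged 1057 ± 51.1 CPM in fluctuating and 1195 ± 38.2 CPM in constant females (-0.18, adjusted p = 0.013), and the spindle checkpoint gene mad2 67.8 ± 7.15 and 86.9 ± 3.15 CPM (-0.36, adjusted p = 0.00832). Of 30 DNA replication genes 7 were lower, among them the GINS subunit gene Psf1 (-0.35), and none higher by either tool, with 15 and 0 at an unadjusted p below 0.05. The called genes were 23.3% of this list. Without fluctuating replicate 6, no gene of either list was called, with medians of -0.105 and -0.0803. Without constant replicate 6 or 8, the mitosis list had 4 lower and the replication list none, and without constant replicate 7, 4 and 3. Summed levels of the mitosis list were 7784, 6328, 7341 and 7140 CPM in fluctuating females, against 7595, 7847, 8357 and 8273 CPM in constant females, and fluctuating replicate 6 was the lowest. That library also had the highest summed levels of photoreceptor, muscle and detoxification genes, at 2454, 5933 and 10200 CPM; the part of tissue make-up in these results was not tested.

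Germline genes were called in both directions. Of 48 ovarian germline genes, 3 were higher and 5 lower, 16.7% of the list beside 13.4% of all genes tested. At an unadjusted p below 0.05 there were 5 and 18, where 3900 of all 13471 genes tested passed. The median log2 fold change of the list was -0.0744. The split was 1 and 9 without constant replicate 5, 1 and 8 without fluctuating replicate 5 and 2 and 1 without fluctuating replicate 6. Among the members called were the germline differentiation gene bam at 59.0 ± 7.12 CPM in fluctuating and 85.1 ± 4.29 CPM in constant females (-0.53, adjusted p = 0.000763) and the piRNA Argonaute gene aub at 113 ± 3.9 and 92.4 ± 8.63 CPM (0.29, adjusted p = 0.00204). Of 27 yolk and eggshell genes 1 (3.7%) was called, the mucin gene Muc12Ea (FBgn0052602, chromosome X, 14277735 to 14288161, plus strand), at 85.6, 173, 237 and 269.5 CPM in fluctuating females, against 31.8, 80.2, 16.9 and 37.7 CPM in constant females (2.20, SE 0.474, adjusted p = 0.00276). Its lowest fluctuating value lay close to its highest constant value. The median log2 fold change of the yolk and eggshell list was 0.634, though its summed level varied widely within both groups. The octopamine receptor gene Oamb, needed for ovulation, averaged 25.3 ± 5.37 CPM in fluctuating and 11.5 ± 2.08 CPM in constant females (1.14, adjusted p = 1.99e-05). Its effect was called larger than that after 6 cycles (by 0.82), at the high point (by 1.35) and in males (by 0.83). Among fat body genes 4 of 21 (19%) were higher, and 1 of 21 without fluctuating replicate 6. The median of that list was 0.513. Lsp1beta, a larval serum protein gene, was at 31.6, 289, 94.0 and 69 CPM in fluctuating females, against 44.2, 9.19, 3.04 and 12.5 CPM in constant females (2.81, adjusted p = 0.00745), and lost its call without fluctuating replicate 6. The sterol-binding gene Npc2b rose by 0.51.

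Cytosolic ribosomal protein genes were higher where called, 21 of 91 and none lower by edgeR or DESeq2, with 33 and 0 at an unadjusted p below 0.05 and a median log2 fold change of 0.0823 over the list. RpLP0 averaged 1375 ± 175 CPM in fluctuating and 951 ± 136 CPM in constant females (0.53, adjusted p = 0.00176), and sta, the gene of another ribosomal protein, 1666 ± 227 and 1146 ± 132 CPM (0.54, adjusted p = 0.00085). RpL17 was at 363, 1475, 359 and 1271 CPM in fluctuating females, against 385, 360.3, 345 and 356 CPM in constant females (1.26, adjusted p = 0.0377): fluctuating replicates 6 and 8 were several-fold higher, and replicates 5 and 7 lay among the constant libraries. The call on RpL17 was lost without fluctuating replicate 6 or 8 or any constant replicate. The list's count was 9 without fluctuating replicate 6, fluctuating replicate 8 or constant replicate 8, 10 without constant replicate 7, and 5 in the fit of the 8 libraries alone. Over all genes these fits called, in the same order, 798, 1278, 1033, 1493 and 595. Ribosome biogenesis genes gave 2 higher and 5 lower of 35, with 2 lower without fluctuating replicate 6 and 9 lower without constant replicate 7. Oxidative phosphorylation genes gave 7 higher and none lower of 83 (22 and 2 at an unadjusted p below 0.05, 14 and 0 by DESeq2, 2 and 0 without constant replicate 8 and 3 and 0 without fluctuating replicate 6), and proteasome genes none higher and 1 lower of 38 (0 and 8 at an unadjusted p below 0.05, 0 and 0 by DESeq2). In the order given, edgeR called 23.1%, 20%, 8.43% and 2.63% of these lists. Over all genes tested it called 13.4%, 7.46% higher and 5.92% lower, and 3900 of the 13471 had an unadjusted p below 0.05.

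Among 57 digestive enzyme genes 6 were higher and 2 lower, 14% of the list beside 13.4% of all genes tested. The number higher was 1 without constant replicate 8 and 2 without fluctuating replicate 6. The 2 lower ones were the alpha-mannosidase genes LManVI, at 114 ± 26.8 CPM in fluctuating and 229 ± 32.8 CPM in constant females (-1.01, adjusted p = 0.0157), and LManV (-0.98), and both effects differed from those at the high point after 12 cycles (by -1.77 and -1.50). The call on LManVI was lost without constant replicate 6 or fluctuating replicate 8. The maltase gene Mal-B1 was higher (0.82, adjusted p = 0.0115), a call lost without constant replicate 8. Of 144 detoxification genes 11 were higher and 4 lower, 10.4% of the list beside 13.4% of all genes tested. The count ran from 5 and 4 without constant replicate 8 to 21 and 7 without fluctuating replicate 5, in fits that called 1033 and 2495 genes in all. The largest change in that list was in Cyp6a8 (1.83, adjusted p = 0.00451), whose fluctuating libraries ran from 5.43 to 32.1 CPM and overlapped the constant ones, at 2.75 to 8.59 CPM; Ugt35C1 (0.65, adjusted p = 0.0145) had groups apart and lost its call without constant replicate 8 or fluctuating replicate 6 or 8. Hemocyte markers gave 5 higher and 1 lower of 23, antioxidant genes 3 higher of 26 and cuticle genes 4 higher and 1 lower of 71. These were 26.1%, 11.5% and 7.04% of the lists, beside 13.4% of all genes tested. Without constant replicate 8 the numbers called higher were 2 hemocyte and 1 cuticle gene, and without fluctuating replicate 6 they were 2 and 0. Without fluctuating replicate 8 there were 2 hemocyte genes, and without fluctuating replicate 5 there were 7 cuticle genes.

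**Figure D4:**
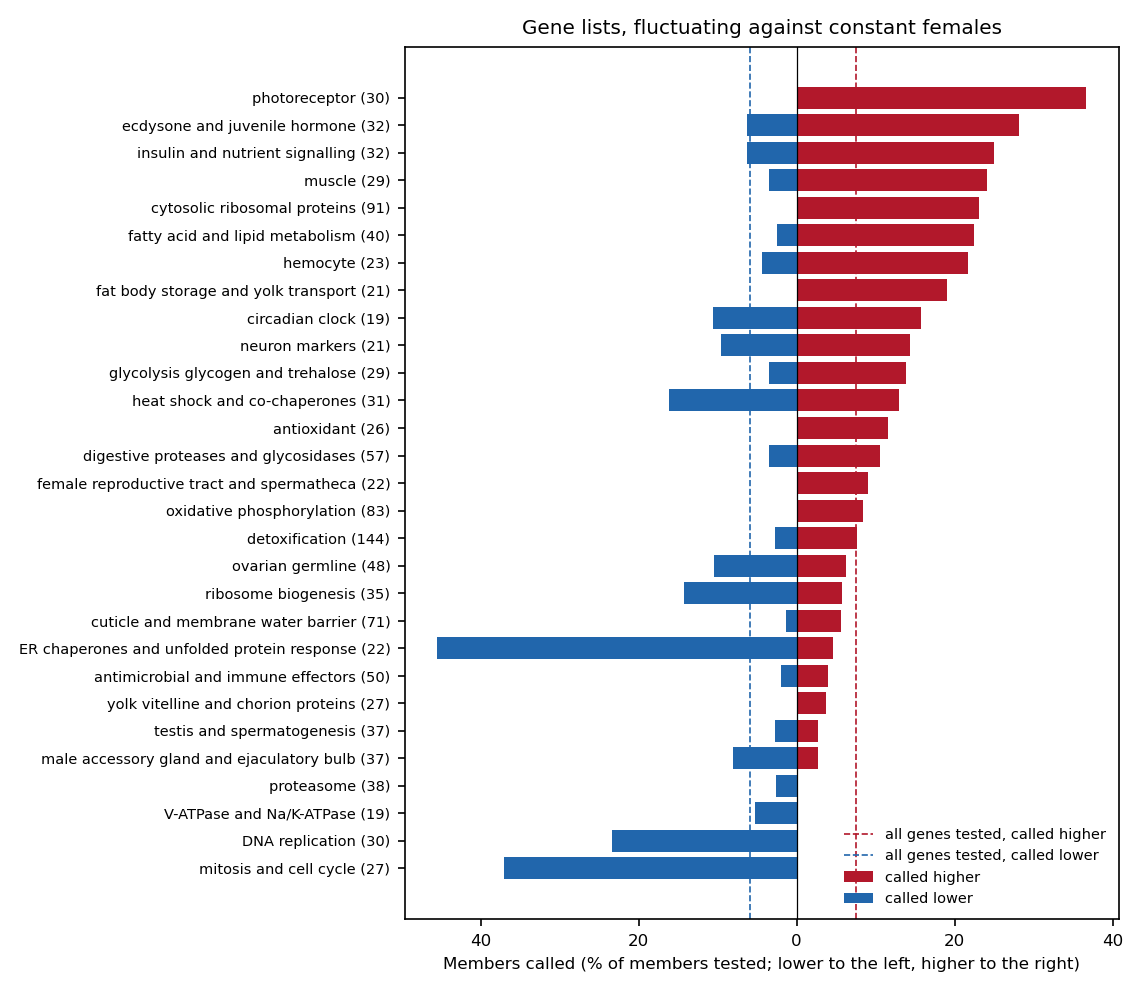
Share of each gene list called higher (red, to the right) and lower (blue, to the left) in fluctuating females, in % of the members tested, whose number stands in brackets; dashed lines give 7.46% and 5.92% over all genes tested. Photoreceptor genes have 11 of 30 members called higher, and endoplasmic reticulum genes (10 of 22) and mitosis genes (10 of 27) the largest shares called lower among the lists with 15 or more members tested.

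The 10 genes of lowest adjusted p hold genes of several other roles. Rcd2 (FBgn0037012, chromosome 3L, 20527972 to 20540417, minus strand) stood at 23, 28.8, 24.9 and 30.2 CPM in fluctuating females, against 10.6, 10.7, 8.97 and 9.35 CPM in constant females (1.43, SE 0.111, adjusted p = 2.91e-09). The neuron marker gene comt (FBgn0000346, chromosome X, 13259021 to 13262488, plus strand), which encodes the NSF ATPase that takes apart SNARE complexes, was lower, at 29.8, 31.4, 29.3 and 32.9 CPM in fluctuating females, against 47.7, 45, 52.4 and 50.3 CPM in constant females (-0.66, adjusted p = 6.27e-08). The values within each group differ little. The NAD kinase gene Nadk1a (0.66), the anion exchanger gene Ndae1 (0.92), Snoo, a gene of TGF-beta signalling (0.67), CG18171 (1.24) and CG6766 (0.55) complete the 10 genes of lowest adjusted p, with per, vri and DnaJ-1. CG18171 overlaps drpr on the same strand, and drpr was called higher as well (0.52, adjusted p = 7.83e-05). Ndae1 overlaps CG43800 on the same strand.

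By size, the 12 leading higher genes with groups apart and a mean of at least 1 CPM began with lncRNA:CR30121. It was at 2.92, 3.05, 1.98 and 2.65 CPM in fluctuating females, against 0.0786, 0.140, 0.445 and 0.250 CPM in constant females (3.52, adjusted p = 0.000424); it overlaps CG33998 and Hs3st-A on the other strand, and CG33998 was called higher as well (3.30, adjusted p = 0.0202), though not without fluctuating replicate 6 or constant replicate 6, 7 or 8. After it came lncRNA:CR44467 (2.56), Muc12Ea (2.20), CG13694 (2.18), lncRNA:CR44288 (2.17), CG30281 (1.91), CG12998 (1.79), CG14142 (1.76), Fst (1.72), the homeobox gene Dr (1.69), snoRNA:Psi28S-3305c and per. The snoRNA gene overlaps Hrb98DE on the same strand. On the lower side, CG31259 was at 0.278, 0.255, 0.370 and 0.175 CPM in fluctuating females, against 2.67, 1.86, 1.17 and 2.31 CPM in constant females (-2.89, adjusted p = 0.0019). asRNA:CR45046 (-2.54), which overlaps 4 other genes, CG34316 (-2.26), AANATL4, an arylalkylamine N-acetyltransferase-like gene (-1.88), CG15155 (-1.87), CG9826 (-1.76), CG4563 (-1.74), Uro, TotC, PIG-Wb, lncRNA:CR45345 and CG1979 completed the 12 on the lower side. The call on CG9826 was lost without constant replicate 5 or 7 or fluctuating replicate 5 or 8, and that on CG1979 without constant replicate 6, 7 or 8 or fluctuating replicate 5, 6 or 8. The urate oxidase gene Uro (FBgn0003961, chromosome 2L, 7780085 to 7781415, plus strand) was at 5.94, 23.4, 14.4 and 6.08 CPM in fluctuating females, against 41.1, 36.5, 59.6 and 23.8 CPM in constant females (-1.69, SE 0.392, adjusted p = 0.00517), and its highest fluctuating value almost met its lowest constant value.

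Some of the largest fold changes belonged to genes annotated at the same coordinates and strand as another gene; these genes were picked after their values were seen. Gint3 was at 1.97, 85.8, 85.8 and 3.02 CPM in fluctuating females, against 1.20, 2.34, 1.28 and 1.52 CPM in constant females (4.80, adjusted p = 0.00357), while its partner CG42306 was at 89.1, 0.542, 3.97 and 87.6 CPM, against 93.7, 93.8, 95.1 and 97.1 CPM. The sum of both was 91.1, 86.3, 89.8 and 90.6 CPM in fluctuating and 94.9, 96.2, 96.3 and 98.6 CPM in constant females. CG10570 (4.52) alternated with CG42502 in the same way, high in fluctuating replicates 5 and 6, and BORCS7 (4.10) with CG13430 and SuUR (2.46) with CG45101. Of 277 tested genes that share coordinates with another, 23 were called, a smaller share than the 13.4% of all genes tested. When the counts at each such place were summed, an alternative added after seeing the data, 12 of these 23 kept the call in the same direction. Another 10 lay at places that were not called. The place shared by SuUR and CG45101 was called lower (-0.191, adjusted p = 0.0359), opposite to SuUR by itself. The locus of Gint3 had a log2 fold change of -0.0973 (adjusted p = 0.104). No gene named in the paragraphs before this one is at such a place.

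The called genes were next followed in comparisons of other libraries. The other female libraries are not independent of the calls, since all female libraries share the estimate of the spread, and 595 genes were called without them. Of the 1005 genes called higher, 611 (60.8%) had the same sign at the low point after 6 cycles, 473 (47.1%) at the high point after 12 cycles and, of 1000 tested in males, 862 (86.2%) at the low point after 12 cycles; 207 (20.6%), 113 (11.2%) and 291 (29.1%) were called in the same direction there, and 85, 123 and 7 in the opposite one. At the high point after 6 cycles 256 (25.5%) had the same sign, 85 were called in the same direction and 441 (43.9%) in the opposite one. Of the 797 called lower, 511 (64.1%), 508 (63.7%) and 638 (80.1%) had the same sign, 261 (32.7%), 139 and 175 (22%) were called in the same direction, and 75, 47 and 4 in the opposite one. At the high point after 6 cycles 319 (40%) of them had the same sign, 122 were called in the same direction and 169 in the opposite one. The share of all genes tested with the same sign was not computed. Over all genes, the comparison after 6 cycles called 26.4% (12.8% higher and 13.7% lower), that at the high point after 6 cycles 30.5% (15.1% and 15.5%), that at the high point after 12 cycles 12% (6.42% and 5.55%) and that in males 9.3% (4.63% and 4.66%).

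The test of the difference itself called 2825 genes (21%) between 12 and 6 cycles, 1410 with a higher (10.5%) and 1415 with a lower effect (10.5%) after 12 cycles, and 1343 genes (9.97%) between the low and high points after 12 cycles, 768 higher (5.7%) and 575 lower (4.27%) at the low point. Between females and males it called 437 of 16058 genes (2.72%), 256 with a higher (1.59%) and 181 with a lower effect (1.13%) in females; with the scaling factors of DESeq2 type this split was 173 and 334. The genes of lowest p between cycle numbers included EMC5, where the effect after 12 cycles was not called (-0.12) and that after 6 cycles was 0.57. Between points they included CG13315, CG18609 and HmgZ, all higher at the low point (0.77, 1.29 and 0.47) and lower at the high point (-1.28, -1.37 and -0.68) in fluctuating females. Between the sexes they included Mocs1, a molybdenum cofactor gene (0.25 in females, 1.45 in males), and the deacetylase gene Sirt1 (0.11, not called, in females and -0.55 in males).

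**Figure D5:**
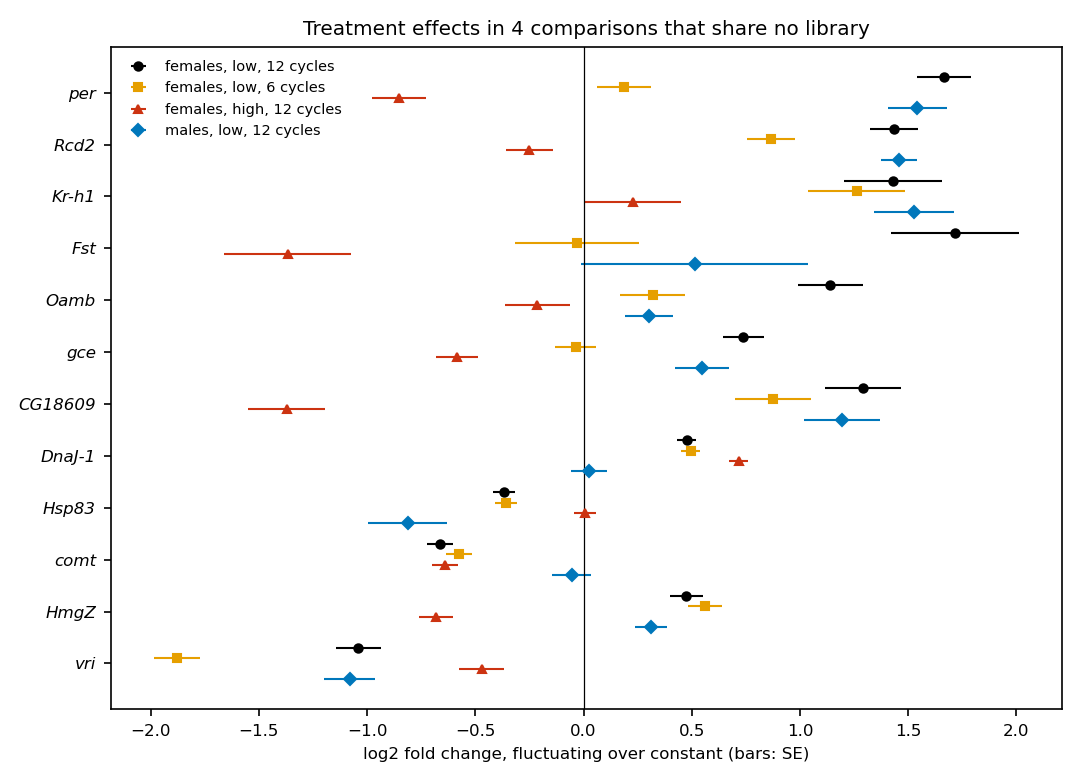
log2 fold change of fluctuating over constant animals with its SE for 12 genes in 4 comparisons that share no library. For per, Rcd2, Fst, Oamb, gce, CG18609 and HmgZ the value is above 0 at the low point and below 0 at the high point after 12 cycles, for comt the female values lie between -0.66 and -0.58, and for DnaJ-1 and comt the male value lies near 0.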

How the data were processed

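RNA was made into cDNA libraries after oligo(dT) selection, per the labels' protocols, and FastQC, Trimmomatic, HISAT2, StringTie and the build BDGP6 are named in the submitters' processing notes, which give no role or version. What the authors deposited is a table of estimated counts, unscaled and already whole, for 17697 identifiers, of which 17559 matched the BDGP6.54 annotation (release 115). All 32 female libraries were fitted as 8 groups and tested by quasi-likelihood (edgeR 4.0.16 in R 4.3.3), with scaling by TMM, low genes removed by filterByExpr at its minimum count of 10, and p-values adjusted after Benjamini and Hochberg; the effects in males came from the 32 male libraries and differences between sexes from all 64 adult libraries. The SE is the log2 fold change divided by the square root of its F. The procedure was tested on simulated data. DESeq2 1.42.0 and other settings were alternatives.

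The comparison and the gene lists were chosen with earlier results of these data known, so lists are given by counts and medians, with no test. Named genes are the 12 largest changes each way among called genes with groups apart and a mean of at least 1 CPM, the 10 of lowest adjusted p, up to 4 of lowest p per list, a set of stress, clock and reproduction genes, and the 5 of lowest adjusted p per difference; other called list members are named beside their counts. List sums are CPM before scaling. Genes and an overlapping neighbour, or near-identical copies, could not be told apart.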

Additional observations from a re-analysis of the deposited data

Results flagged for a closer look

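Of 182 groups of 4 values tested for a value far from the others, 7 were picked out; chance alone picks out about 1 in 20. Constant replicate 7 gave 4 of them, with 9399 CPM for the sum of yolk and eggshell genes (23800 to 25490 CPM in the other constant libraries), 14.3 CPM for eloF (30.8 to 32.5), 3113 CPM for Hsp83 (3447 to 3493) and 220.6 CPM for Hsf (209.6 to 210.1). Fluctuating replicate 7 was high for Clk (5.71 CPM, against 4.91 to 4.99), fluctuating replicate 6 for LpR1 (130 CPM, against 98.4 to 103), and constant replicate 5 for lncRNA:CR44467 (0.442 CPM, against 0.236 to 0.270).

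The treatment effect after 12 cycles differed from that after 6 cycles, at the low point in females, in 39 of the 82 genes described (edgeR, adjusted p at most 0.05). Over all genes tested this difference was called in 21%. Many of the 82 were chosen by their effect at the low point after 12 cycles, and some by these differences. Their counts here and below are therefore raised by the choice and say nothing about these genes as a set. On the log2 scale the effect after 12 cycles was higher by 1.48 for per, 0.84 for vri, 0.40 for cwo, 0.705 for Pdfr and 0.62 for tim, and the difference was -0.46 for Bdbt. It was higher by 0.53 for stv, 1.75 for Fst, 0.78 for gce, 0.97 for shd, 0.27 for Jheh3, 0.61 for Ilp6, 0.59 for Tret1-1, 0.95 for Tps1, 0.52 for LpR1 and 0.58 for FASN1. Among photoreceptor, ribosomal protein and muscle genes it was higher by 0.80 for trp, 0.48 for Arr2, 0.48 for inaF-B, 0.585 for ninaE, 0.89 for RpLP0, 0.68 for sta, 2.79 for RpL17 and 0.52 for Mhc. The difference was 0.82 for Oamb, 0.72 for Ugt35C1, 0.57 for Rcd2, 0.61 for CG18171, 0.44 for Nadk1a, 0.75 for Ndae1, 0.49 for Snoo, 1.14 for Dr and 0.51 for CG13315. It was negative for Hsf (-0.23), TotA (-2.98), Akt (-0.21), mad2 (-0.64), Psf1 (-0.66) and EMC5 (-0.69).

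The effect at the low point differed from that at the high point, after 12 cycles in females, in 48 of these genes, beside 9.97% of all genes tested. The difference was 2.52 for per, -0.57 for vri, 0.62 for cwo and 0.84 for Pdfr. For chaperone genes it was -1.16 for Hsp68, -0.24 for DnaJ-1, -0.375 for Hsp83, -0.59 for Hsc70-3, -0.53 for Calr and 0.50 for Ire1. It was 3.08 for Fst, 0.98 for lncRNA:Hsromega, 1.20 for Kr-h1, 1.32 for gce, 1.60 for shd, -0.43 for Jheh3, 0.93 for Ilp6, 1.23 for AkhR, 1.47 for Ldh, 0.71 for Tret1-1, 0.87 for Tps1, 0.72 for LpR1, 0.78 for inaF-B, 1.93 for RpL17 and 1.35 for Oamb. It was -1.77 for LManVI, -1.50 for LManV, 2.01 for Cyp6a8 and 1.05 for Ugt35C1. Among the leading genes it was 1.68 for Rcd2, 1.71 for CG18171, 0.90 for Nadk1a, 0.97 for Ndae1, 0.69 for Snoo, 0.48 for CG6766, 1.96 for Dr, 3.58 for CG13694, 5.57 for lncRNA:CR30121 and 3.96 for lncRNA:CR44467. It was -2.06 for Uro, -4.26 for CG31259, -2.60 for asRNA:CR45046, -3.25 for AANATL4 and -2.77 for CG15155. It was 2.66 for CG18609, 2.05 for CG13315, 1.16 for HmgZ and 0.43 for Mocs1.

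The effect in females differed from that in males, at the low point after 12 cycles, in 13 of these genes, beside 2.72% of all genes tested. Females minus males, it was 0.77 for Hsp68, 0.83 for Hsp23, 0.44 for DnaJ-1, 0.80 for lncRNA:Hsromega, 1.29 for shd, -0.30 for Akt, 0.80 for FASN1, 0.83 for Oamb, -0.61 for comt, 1.11 for CG18171, 0.69 for CG6766, -1.20 for Mocs1 and 0.65 for Sirt1.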

How the results depend on the processing

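Of 212 called genes, those named and the called members of the lists, 64 kept the call under all 15 other settings run on them, and none changed sign. The number of genes called at the low point after 12 cycles was 595 (410 higher, 185 lower) when the 8 libraries were fitted alone and 798 to 2495 when each library was left out in turn, lowest without fluctuating replicate 6 and highest without fluctuating replicate 5. It was 1707 with DESeq2-type factors (1072 and 635), 1481 without a filter on low counts (975 and 506), 1935 with counts divided by 4 and 2153 with DESeq2. The difference between the sexes gave 1038 genes with DESeq2 and 275 to 520 when each library was left out. Same-numbered libraries had correlations of their deviations from the group mean of -0.0822 to 0.0365, and the other pairs of -0.102 to 0.0837. With 4 libraries per group these values cannot show whether the replicate numbers pair the samples. With the replicate block 1409 genes were called (821 higher, 588 lower). After summing genes of the same coordinates, added after seeing the data, 1713 loci of 13342 were called; the log2 fold change became -0.133 for CG10570, -0.0973 for Gint3 and -0.191 for SuUR, since each takes its partner's counts. Intervals for low genes may be wider than totals imply, since 40.3% of the values between 1 and 24 are multiples of 4, but this was not tested.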
